A study of Mus musculus with 2 samples.

Results

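The genes described here are 10 transcription factors and feedback regulators of the integrated stress response, chosen by name from the 54532 Ensembl identifiers of a count table: Atf4, Atf5, Ddit3, Cebpb, Cebpg, Atf3, Jdp2, Trib3, Ppp1r15a and Nupr1. All 10 were found and all 10 reached the minimum mean of 10 counts. CD8+ T cells, with the genotype given as WT, were taken from the spleens of mice that the labels call ND, an abbreviation the labels do not spell out. One group was kept for 8 h in RPMI 1640 medium, called complete medium here, and the other for the same time in RPMI 1640 that lacked methionine, which cells need for protein synthesis and for making the methyl donor S-adenosylmethionine. Each group is 1 bulk RNA-seq library. The sources used here do not give the strain, age or sex of the animals, how many animals stand behind a library, or whether the cultures shared animals.

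The integrated stress response starts when a kinase phosphorylates the translation initiation factor eIF2. GCN2, the kinase that senses uncharged tRNA, does so when an amino acid runs short. General protein synthesis then slows, while a few mRNAs with short upstream reading frames, that of ATF4 first among them, are translated better. ATF4 is a basic leucine zipper (bZIP) factor that binds DNA as a dimer, often with a C/EBP protein, and its targets include further bZIP factors such as CHOP, the product of Ddit3, and proteins that turn the response down again. RNA levels, as measured here, do not show the translational step.

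The complete-medium library held 14646527 counts and the methionine-free library 19647681. Levels are in CPM, counts per 1000000 after TMM scaling, and a fold is the ratio of these levels. The 95% interval after a fold reflects counting error and leaves out any spread among cultures or animals. With 1 library per medium there is no replicate check and no p-value, and calls rest on the size of the fold alone. Defining genes of CD8+ T cells were present, Cd3e at 146 and 154 CPM and Cd8a at 664 and 527 CPM. Of 3 CD4 T cell markers, Cd4 had 9 and 11 counts, Foxp3 52 and 78 and Cd40lg 2 and 16. Of the 8 neutrophil markers none had more than 2 counts in either library. The summed level of 8 B cell markers was 209 and 128 CPM in the complete and methionine-free libraries. Most of that sum was Ighm, at 196 and 120 CPM. Of the 7 measured, 5 were at least 1.5-fold lower, beside 18.0% of all genes tested. The summed level of 8 dendritic cell markers was 44.2 and 80.6 CPM. Of the 5 measured, 3 were at least 1.5-fold higher, beside 15.7% of all genes tested. Zbtb46 was at 5.24 and 18.3 CPM and Clec9a had 0 and 1 counts. The part of these cells in the results below was not tested. Of 6 RNAs without a poly(A) tail, Rn7sk had 11 and 115 counts and the others at most 4. The labels name 2 library kits, one for whole RNA and one for mRNA, without tying them to libraries, so the medium and a change of kit cannot be told apart. In bulk RNA, fewer cells of a type and less RNA per cell cannot be told apart either.

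Of the 10 regulators, 8 were at least 1.5-fold higher without methionine, 1 was at least 1.5-fold lower and 1 lay between. Over all 13041 genes tested, 15.7% were higher and 18.0% lower by that measure. The 10 were chosen with earlier results of these data known, so these shares describe them and are no independent comparison. At 2-fold, 5 regulators were higher and 0 lower, against 5.80% and 9.29% of all genes. The median log2 difference of the 10 was 1.12, beside 0.04 for all genes tested. Summed over the 10, the level was 854 CPM in complete and 1932 CPM in methionine-free medium. Ddit3 had the highest difference of the 10 and ranked 60th from the top among all genes tested, and Atf5 ranked 78th. Jdp2 was the lowest of the 10.

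**Figure D1:**
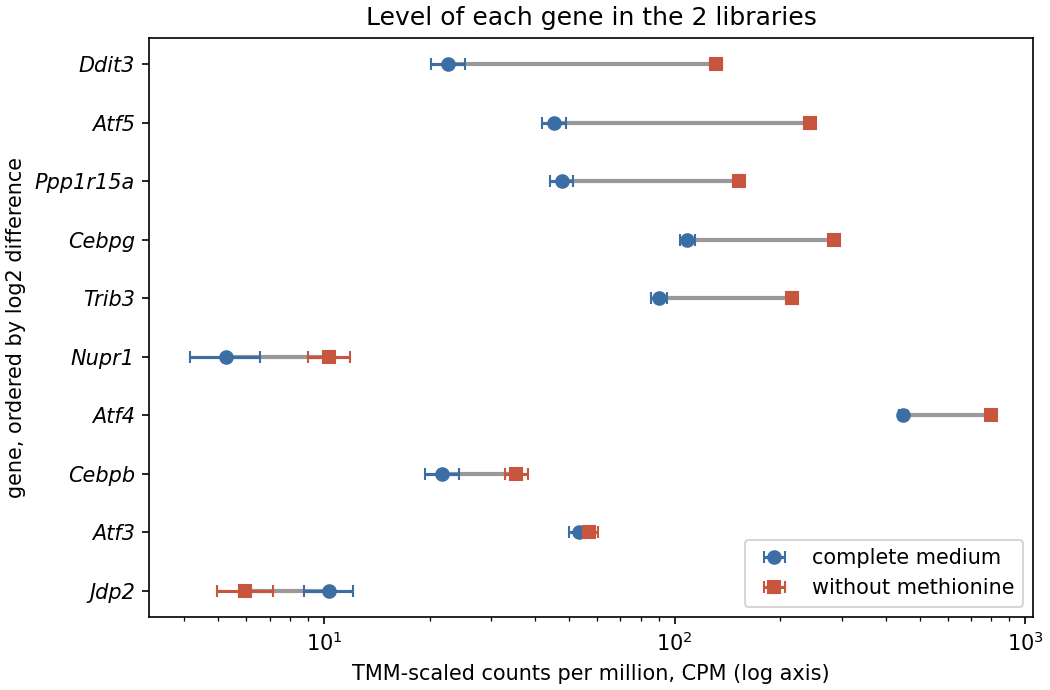
Level of each of the 10 genes in CPM (horizontal log axis) in complete medium (circles) and without methionine (squares), with 95% Poisson counting intervals, 1 library per medium. Ddit3 goes from 22.6 to 131 CPM at the top, both symbols of Atf3 lie together at 53.5 and 56.9 CPM, and at the bottom the order of the symbols is turned round for Jdp2.

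Promoter sequence gives a first view of how these genes differ. ATF4 dimers bind composite C/EBP-ATF elements, which amino acid-responsive genes can carry near their start. RefSeq windows (GRCm38.p6) of 250 bases before to 50 after the transcription start were found for all 10 genes. There were 13 windows in all, with 2 starts for Atf5 and 3 for Jdp2. The GENCODE genes of Atf3 and Nupr1 begin upstream of their windows, and any start there was not searched. Both strands were searched for the composite element TGATGNAA, the cAMP response element TGACGTCA, the AP-1 element TGANTCA, the CHOP-C/EBP element TGCAAT and the ER stress response element, CCAAT and CCACG with 9 bases of any kind between them. A composite element was found in 1 window each of Atf3, Nupr1, Jdp2 and Trib3, 4 of the 13 windows, against 3.97% of all 32851 windows. The stretches below are those with a match before the RefSeq start of the window, in the orientation of the gene, with matched letters in capitals. They are shown because the windows that hold the composite element are not those of Ddit3 and Atf5, the genes with the highest differences of the 10. A link between these motifs and the folds was not tested.
Atf3, chr1:191183416-191183463, minus strand: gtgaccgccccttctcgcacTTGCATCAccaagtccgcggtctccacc
Nupr1, chr7:126625553-126625600, minus strand: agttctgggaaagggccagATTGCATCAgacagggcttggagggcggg
Jdp2, chr12:85599363-85599410, plus strand: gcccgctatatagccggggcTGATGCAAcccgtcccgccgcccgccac
Trib3, chr2:152344065-152344110, minus strand: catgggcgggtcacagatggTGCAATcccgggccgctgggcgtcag
Ppp1r15a, chr7:45526269-45526300, minus strand: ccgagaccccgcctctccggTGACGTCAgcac
Ddit3, chr10:127290543-127290577, plus strand: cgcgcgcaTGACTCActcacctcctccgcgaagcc

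In Atf3 and in Nupr1 the composite element spans positions -110 to -103 on the reverse strand, and in Nupr1 it overlaps a CHOP-C/EBP match that begins at -111. In Jdp2 it spans -33 to -26 of the middle start, which places it downstream of the first start and inside the GENCODE gene. The composite match of Trib3 lies after the RefSeq start, at 15 to 22, but upstream of the GENCODE gene. The capitals in the Trib3 stretch mark a CHOP-C/EBP match. The capitals of Ppp1r15a mark a cAMP response element ending 5 bases before the start, a motif found in 1.79% of all windows, and those of Ddit3 an AP-1 element, found in 7.81%. The CHOP-C/EBP letters were in 8.40% of all windows, and the ER stress response element, in 0.119% of all windows, was in none of the 13. No motif was found in the windows of Atf4, Atf5, Cebpb and Cebpg, which says only that these letters are not in these windows. The same holds for the composite element in Ddit3: sequence more than 250 bases before a start was not searched for any gene. Among all genes tested with a window, 18.9% of the 259 with a composite element were called higher at 1.5-fold and 22.8% lower, against 14.6% and 16.9% of the 9009 without; the difference between these shares was not tested.

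**Figure D2:**
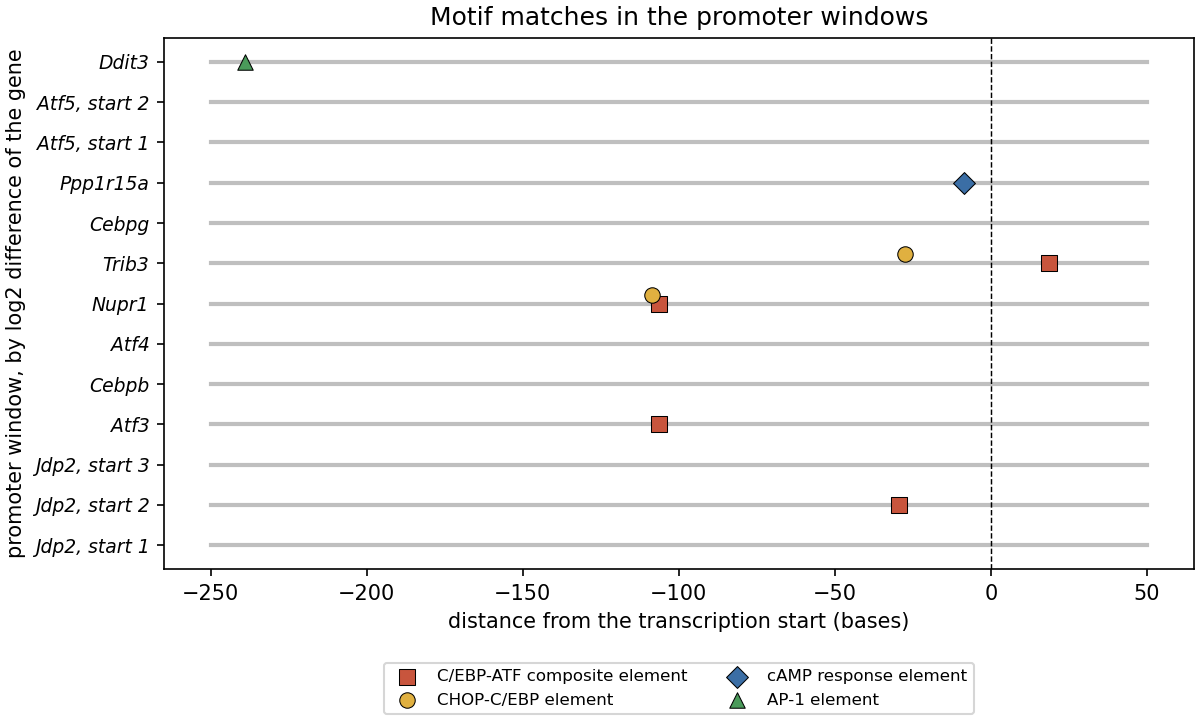
Motif matches in the 13 promoter windows, by distance from the transcription start in bases, with 1 line per window, ordered by the log2 difference of its gene (highest at the top) and starts numbered by coordinate. Squares for the composite element are at Trib3, Nupr1, Atf3 and Jdp2, and the Ddit3 line carries only an AP-1 match at -242 to -236.

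The bZIP activators ATF4 and ATF5 are both encoded by mRNAs whose translation increases when eIF2 is phosphorylated. Atf4 (ENSMUSG00000042406, GRCm38 chromosome 15, 80255184 to 80257541, plus strand) was at 448 CPM in complete and 796 CPM in methionine-free medium, from 6586 and 15603 counts. It was 1.78-fold higher (1.73 to 1.83), a smaller fold than 6 of the other regulators had, on the largest count of the 10. Atf5 (chromosome 7, 44812256 to 44816658, minus strand) was at 45.3 and 243 CPM, from 666 and 4762 counts, and was 5.36-fold higher (4.94 to 5.82). Atf5 shares 82 exon bases, 4.11% of its exons, with Nup62 on the opposite strand. Nup62, a nuclear pore gene, was at 236 and 244 CPM, a ratio of 1.03 (0.987 to 1.08). Il4i1, which shares the same bases, had 3 and 4 counts.

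CHOP, C/EBP beta and C/EBP gamma belong to the C/EBP family, whose members pair with each other and with ATF4. CHOP lacks the usual DNA contacts of the family and is known for promoting cell death under prolonged stress. Ddit3 (ENSMUSG00000025408, chromosome 10, 127290774 to 127296288, plus strand) was at 22.6 and 131 CPM in the complete and methionine-free libraries, from 332 and 2568 counts. It was 5.80-fold higher (5.17 to 6.52), and its interval overlaps that of Atf5. A further identifier of the same symbol, nested in the gene on the same strand, had 0 counts in both libraries. It shares 105 exon bases, 6.13% of the Ddit3 exons. How reads over shared bases were counted is not given, so the 0 counts set no upper level for it. Ddit3 shares 68 exon bases, 3.97% of its exons, with Mars on the opposite strand. Mars, the methionyl-tRNA synthetase gene, was 1.11-fold higher (1.07 to 1.15), at 363 and 403 CPM. The non-coding Gm4189, which shares 13 bases with Ddit3, had 18 and 19 counts.

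Cebpg encodes C/EBP gamma, a short family member without an activation domain of its own that pairs with ATF4. The gene (chromosome 7, 35046422 to 35056573, minus strand) was at 109 and 285 CPM, with 1594 counts in the complete library and 5575 in the other. It was 2.62-fold higher (2.48 to 2.77). Gm45095, which shares 4 bases with it on the opposite strand, had 1 and 8 counts. Cebpb, which encodes C/EBP beta, a factor of inflammatory and myeloid gene expression, went from 319 to 693 counts, 21.7 to 35.4 CPM. It was 1.63-fold higher (1.42 to 1.87), an interval that holds 1.5. Cebpb (chromosome 2, 167688915 to 167690418, plus strand) shares 312 bases, 20.7% of its single exon, with Tmem189 on the opposite strand, which had 749 and 970 counts. Tmem189 was at 51.0 and 49.5 CPM, a ratio of 0.971 (0.882 to 1.07). Myeloid cells are rich in Cebpb, and the 10 macrophage and monocyte markers summed to 6.81 and 7.09 CPM in the complete and methionine-free libraries. Lyz2 had 4 counts in both libraries, C1qa 0 in both and Cd68 68 and 118. The 8 dendritic cell markers summed to 44.2 and 80.6 CPM. The part of any such cells in the Cebpb level was not tested.

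The other C/EBP genes were scarce. Cebpd had 40 and 23 counts, Cebpa 4 and 3, and Cebpe 0 in both. Per kb of exon, Cebpg was the highest of the family in complete medium, at 19.3 CPM per kb, followed by Cebpb at 14.4 and Ddit3 at 13.2. Counting intervals of the last 2 overlap. Without methionine the order was Ddit3 at 76.5, Cebpg at 50.6 and Cebpb at 23.5. The summed level of the family per kb was 47.8 in complete medium and 151 without methionine, and the Ddit3 part of it was 27.6% and 50.7%. On the length of the principal transcript alone, in place of all exons, the Ddit3 part was 39.9% and 63.6%. On that length Ddit3 was already the highest of the family in complete medium, at 25.4 beside 23.0 for Cebpg, with overlapping intervals, so the order in that library depends on the length chosen.

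**Figure D3:**
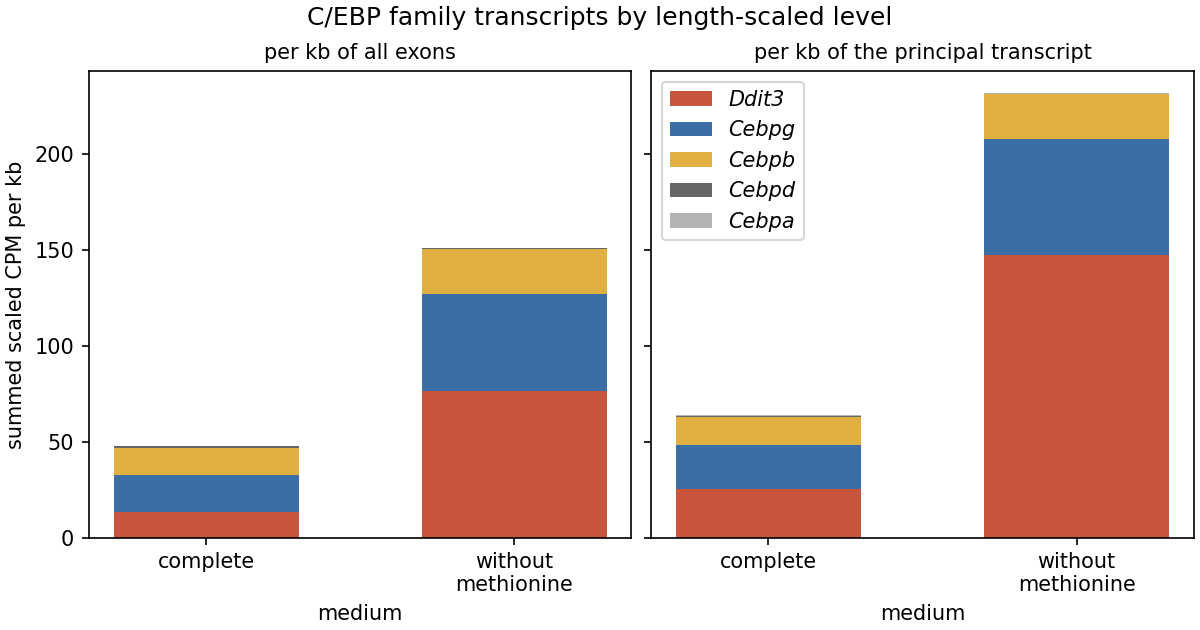
Summed level of C/EBP family transcripts in each medium, as CPM per kb of all exons (left) or of the principal transcript (right), with each gene as a segment, 1 library per bar. The Ddit3 segment goes from 13.2 to 76.5 on the left and from 25.4 to 147 on the right, while the Cebpd and Cebpa segments are barely visible.

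ATF3 and JDP2 are closely related bZIP factors that can repress transcription, and ATF3 is also an immediate early gene product. Atf3 (chromosome 1, 191170296 to 191218039, minus strand) was at 53.5 and 56.9 CPM, from 786 and 1115 counts. Its ratio was 1.06 (0.970 to 1.17), an interval that holds 1, so no difference could be detected at this depth. Jdp2 (chromosome 12, 85599027 to 85639878, plus strand) had 152 and 117 counts, or 10.3 and 5.97 CPM. It was 1.73-fold lower (1.35 to 2.23), the only one of the 10 with an interval below a ratio of 1, on few counts. Gm47863, which overlaps Jdp2 on the opposite strand, had 0 and 2 counts, and Gm24748, which lies within Atf3 but shares no exon base with it, had 0 in both libraries. Immediate early genes were set beside Atf3: of 14 measured, 8 were at least 1.5-fold higher and 1 lower, beside 15.7% and 18.0% of all genes, with a median log2 difference of 0.74. Cd69, an activation marker, was 2.90-fold higher (2.77 to 3.04), the phosphatase gene Dusp2 2.52-fold (2.35 to 2.71) and the transcription factor gene Egr1 2.25-fold (2.11 to 2.41). Ier3 was 2.50-fold lower (2.10 to 2.98). Fosb and Nr4a3, with ratios of 1.02 and 0.828, lay near or below the ratio of Atf3.

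TRIB3, GADD34 and NUPR1 act downstream of ATF4. TRIB3 is a pseudokinase that binds ATF4 and CHOP and dampens their activity. Trib3 (chromosome 2, 152337422 to 152344032, minus strand) was at 90.3 and 216 CPM, from 1326 and 4239 counts, and was 2.40-fold higher (2.25 to 2.55). Of its relatives, Trib2 was 2.83-fold higher (2.59 to 3.11), at 40.1 and 114 CPM, and Trib1 1.21-fold (1.01 to 1.46), at 13.1 and 15.8 CPM. The Trib2 fold was larger than that of Trib3, and their counting intervals do not overlap.

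Ppp1r15a encodes GADD34, the stress-induced subunit that directs protein phosphatase 1 to eIF2 and so ends the response. Ppp1r15a (chromosome 7, 45522916 to 45526268, minus strand) was at 47.7 and 153 CPM, from 700 and 2989 counts. It was 3.20-fold higher (2.95 to 3.48). Its constitutive relative Ppp1r15b was at 195 and 218 CPM, a ratio of 1.12 (1.07 to 1.17). Tulp2, which shares 12 exon bases with Ppp1r15a on the opposite strand, had 8 and 22 counts. Nupr1, which encodes a small stress-induced nuclear protein, had the fewest counts of the 10 in complete medium, 77 there and 203 without methionine, or 5.24 and 10.4 CPM. Nupr1 (chromosome 7, 126623249 to 126630861, minus strand) was 1.98-fold higher (1.51 to 2.60).

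By fold, the order from the highest was Ddit3, Atf5, Ppp1r15a, Cebpg, Trib3, Nupr1, Atf4, Cebpb, Atf3 and Jdp2. Counting intervals overlap between Ddit3 and Atf5, between Cebpg and Trib3, between Nupr1 and each of Cebpg, Trib3, Atf4 and Cebpb, and between Atf4 and Cebpb. Per kb of exon, Atf4 was the most abundant of the 10 in both libraries, at 190 CPM per kb in complete medium and 338 without methionine. Its part of the summed level per kb of the 10 was 54.3% and 42.4%. In complete medium Trib3 followed at 42.5, then Atf3 at 24.8 and Atf5 at 22.8, with Ddit3 at 13.2 above only Jdp2 and Nupr1. Without methionine Atf4 was followed by Atf5 at 122, Trib3 at 102 and Ddit3 at 76.5. The place of Ddit3 depends on the length. Per kb of the principal transcript it was at 25.4 in complete medium, above Atf5, Cebpg at 23.0, Ppp1r15a at 20.4 and Cebpb at 14.4, with an interval that overlaps those of Atf5, Cebpg and Atf3. Without methionine it came next after Atf4 on that length, at 147 (142 to 153), before Atf5 at 134 (130.1 to 138) and Trib3 at 107. On the length of all exons, neighbours whose level intervals overlap were Atf3 with Atf5, Ppp1r15a with Cebpb and Cebpb with Ddit3 in complete medium, and Ppp1r15a with Cebpg and Atf3 with Cebpb without methionine.

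**Figure D4:**
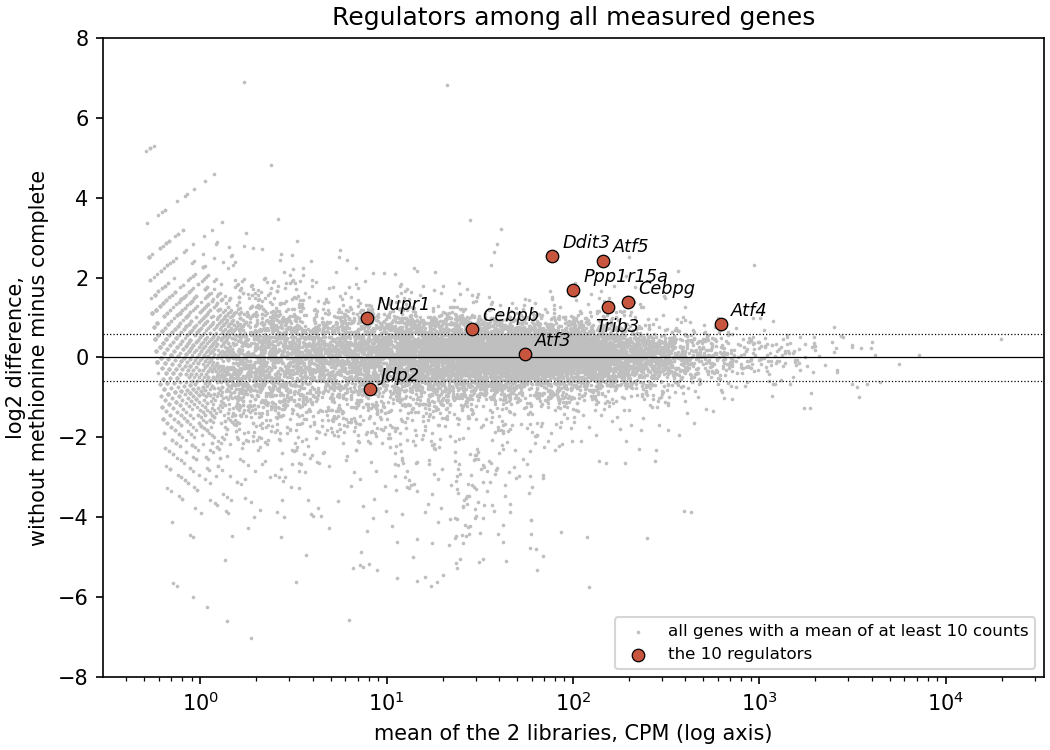
Log2 difference (vertical, without methionine minus complete) against the mean level in CPM (horizontal log axis) for the 13041 genes tested (grey) and the 10 regulators (red), with dotted lines at 1.5-fold. Ddit3 and Atf5 lie highest of the 10, ranked 60th and 78th of all genes by difference, Atf3 lies within it near 0, and Jdp2 lies below the lower line.

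Upstream ATG triplets are the feature through which the mRNAs of this pathway are known to escape the block on translation. In the principal GENCODE transcript of each gene, 8 of the 10 had at least 1 ATG before the start codon, and 5 had at least 2. Of 11126 protein-coding genes tested, 50.1% had at least 1 and 27.8% at least 2. Leaders were longer in the 10, with a median of 247 bases beside 169. Among 7124 genes with a leader in the same range of lengths, 62.2% had at least 1 ATG and 34.9% at least 2. Atf4 and Ppp1r15a had 3, Atf5, Ddit3 and Jdp2 had 2, Atf3, Cebpg and Nupr1 had 1, and Trib3 and Cebpb had 0. Jdp2, the lowest gene, had as many as Ddit3, and a link between the number of ATG triplets and the folds was not tested. Over all protein-coding genes tested, 16.9% of those with 2 or more were called higher at 1.5-fold, against 12.8% of those with 0, a difference that was not tested. By position, 4 of the 10 are on chromosome 7, which holds 7.79% of the genes tested, and 17.7% of the genes tested there were at least 1.5-fold higher.

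The kinases and eIF2 control genes upstream of ATF4 showed no call at the RNA level. Of 20 measured, 0 passed 1.5-fold in either direction, where 15.7% of all genes tested were higher and 18.0% lower. Their median log2 difference was 0.07. Eif2ak4, the gene of GCN2, was at 39.5 and 32.5 CPM, a ratio of 0.823 (0.734 to 0.923), and Eif2ak3, the gene of the ER stress kinase PERK, at 38.2 and 43.5 CPM. The largest difference was that of Eif2ak2, the gene of the double-stranded RNA kinase PKR, with a ratio of 0.714 (0.612 to 0.834). Impact, which encodes an inhibitor of GCN2 activation, had a ratio of 1.39 (1.23 to 1.56), Eif2s2, an eIF2 subunit gene, 1.37 (1.33 to 1.41) and Eif2b4, of its exchange factor, 1.32 (1.21 to 1.43).

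Textbook targets of ATF4 were taken in 3 lists, whose medians lay on both sides of 0; differences between lists were not tested. Of 20 measured genes of amino acid synthesis and import, 0 were at least 1.5-fold higher and 5 lower, beside 15.7% and 18.0% of all genes tested, with a median log2 difference of -0.35. Cth, of cysteine synthesis, was 3.87-fold lower (3.50 to 4.29), and the serine synthesis gene Psph, the alanine aminotransferase gene Gpt2 and the serine synthesis gene Phgdh were 1.91-fold, 1.84-fold and 1.83-fold lower. Asns, of asparagine synthesis, was at 304 and 190 CPM, and Slc7a11, the cystine importer gene, at 10.0 and 7.09 CPM. Of 14 genes of tRNA charging and export, 2 lay higher and 1 lower at 1.5-fold, where 15.7% and 18.0% of all genes did; the share higher is near that of all genes. Their median log2 difference was 0.25. The tRNA exporter gene Xpot was 1.56-fold higher (1.51 to 1.62) and the alanyl-tRNA synthetase gene Aars 1.55-fold. Yars, for tyrosine, had a ratio of 1.39 (1.34 to 1.45), and Vars, for valine, was 1.58-fold lower.

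Of 18 stress, growth and death targets, 16 were measured. By the 1.5-fold measure 3 lay higher and 3 lower, shares near the 15.7% and 18.0% of all genes, and the median log2 difference was 0.05. The autophagy receptor gene Sqstm1 was 1.78-fold higher (1.71 to 1.87), the haem oxygenase gene Hmox1 1.78-fold (1.55 to 2.06) and the autophagosome gene Map1lc3b 1.68-fold (1.54 to 1.83). The lipoprotein receptor gene Vldlr went from 126 to 25 counts, and Ddit4, which encodes an inhibitor of mTORC1, from 270 to 139 CPM, 1.95-fold lower (1.86 to 2.05). Ero1l, an ER oxidase gene known as a CHOP target, was 1.64-fold lower (1.58 to 1.69). Chac1, of glutathione breakdown, had a ratio of 1.27 (1.11 to 1.46), and Sesn2, an mTORC1 inhibitor gene, 1.24 (1.14 to 1.35). Gdf15, a secreted stress marker, had 0 and 12 counts and lies under the minimum.

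Targets of the other branches of the ER stress response, XBP1 and ATF6, were taken as a list because Atf4 and Ddit3 also answer ER stress. Of 17 measured, 2 were at least 1.5-fold higher and 7 lower, where 15.7% and 18.0% of all genes were, with a median log2 difference of -0.40. Sdf2l1, of an ER chaperone complex, was 3.42-fold lower (3.08 to 3.80), the disulphide isomerase gene Pdia3 1.85-fold (1.79 to 1.92) and Xbp1 itself 1.83-fold (1.72 to 1.94). The ER chaperone gene Hsp90b1 was at 578 and 324 CPM, and Hspa5, which encodes BiP, at 792 and 631 CPM. Dnajb9, a co-chaperone gene, was 2.17-fold higher (1.84 to 2.57) and the degradation adapter gene Sel1l 1.55-fold (1.47 to 1.65).

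Of 45 other bZIP factor genes, 35 were measured, of which 9 were at least 1.5-fold higher and 7 lower, with a median log2 difference of 0.36. Over all genes the shares were 15.7% and 18.0%, and the share of lower bZIP genes is near the latter. Batf, an AP-1 factor of T cells, was 2.12-fold higher (1.88 to 2.40), Nfe2l1, which controls proteasome genes, 2.08-fold (1.99 to 2.17) and the small MAF gene Maff 1.88-fold (1.63 to 2.17). Batf3 was 2.89-fold lower (2.52 to 3.32), from 660 to 305 counts. Among the AP-1 genes related to Atf3 and Jdp2, Fosl2 was 1.79-fold higher (1.70 to 1.88) and Junb 1.60-fold (1.54 to 1.66). Fos, Jun, Jund, Fosb and Fosl1 passed no call, with ratios of 1.48, 1.44, 1.17, 1.02 and 0.852. The highest fold of the list, that of Batf, lay below those of Ddit3, Atf5, Ppp1r15a, Cebpg and Trib3.

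**Figure D5:**
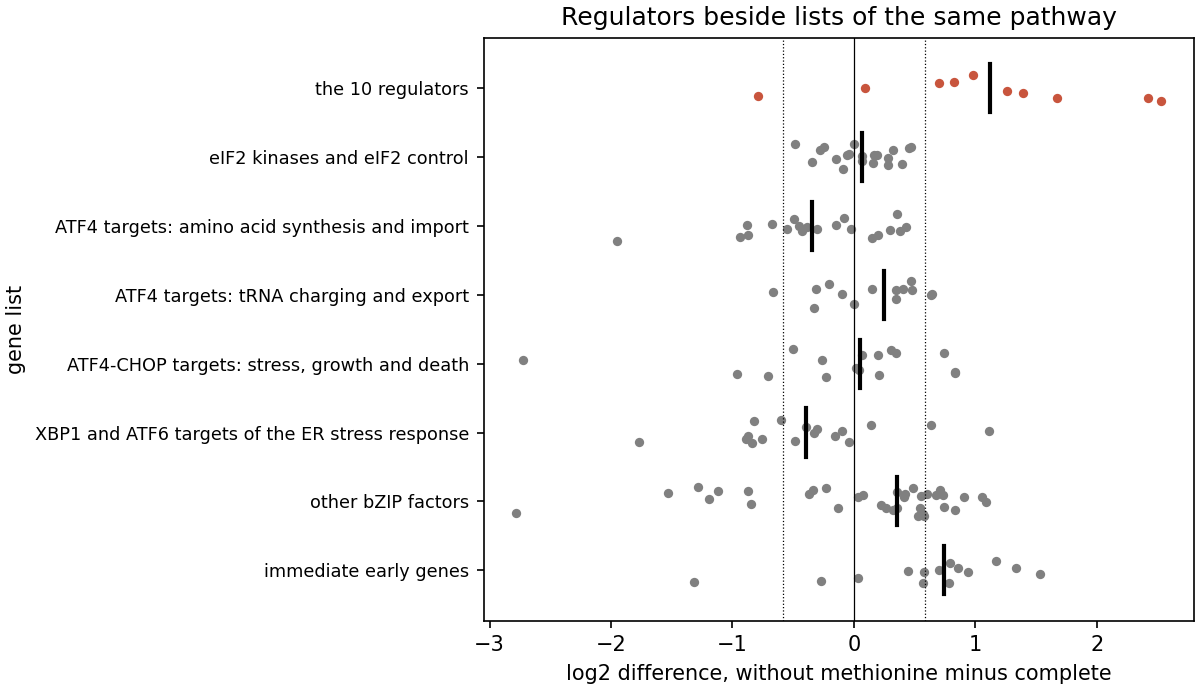
Log2 difference of each measured gene (points) in the 10 regulators and 7 lists chosen for the pathway and its surroundings, with black bars at the medians and dotted lines at 1.5-fold, 1 library per medium. The median is 1.12 for the regulators, 0.07 for the eIF2 kinases and control genes and -0.35 for the ATF4 targets of amino acid synthesis and import.

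With 2 libraries a pattern is a single difference. The protein-coding genes nearest to Ddit3 in log2 difference, given a mean of 50 counts or more, were Cxcl16, Tas1r3 and Lad1. Lad1, with 881 and 6667 counts, was 5.67-fold higher (5.29 to 6.09). Cxcl16 had 24 and 185 counts and Tas1r3 13 and 105, so their folds of 5.78 and 6.05 have wider intervals, 3.76 to 9.25 and 3.39 to 11.7.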

How the data were processed

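The deposited table holds raw counts per Ensembl gene, as whole numbers for 2 bulk RNA-seq libraries and 54532 identifiers. Per the submitters' processing notes the build was mm10; the aligner, the counter and any use of strand are not named in the sources used here. The authors' table carries no tests. Symbols, positions and lengths came from GENCODE M21 (GRCm38), which matched 54495 identifiers, and promoter sequences from RefSeq (GRCm38.p6). Counts were scaled by TMM in edgeR 4.0.16 (factors 1.003 and 0.997). The log2 difference used a prior count of 0.5 over the 13041 genes whose mean reached 10 counts; folds use no prior count. Intervals are 95% exact conditional binomial intervals for ratios and exact Poisson intervals for levels (scipy 1.17.1). The steps were tested on simulated data. Alternatives were total counts, upper quartile and DESeq2 1.42.0 size factors, a prior count of 2, no minimum or a minimum of 100 counts, and a 2-fold threshold.

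The members and lists were chosen with earlier results of these data known. By rule, the text names every member, the 4 genes of each list that differed most, given a mean of 50 counts or more, Trib1, Trib2 and Ppp1r15b, genes overlapping a member on the opposite strand, and the 3 genes nearest to the leading member in log2 difference. Any other gene named, among them Asns, Slc7a11, Ero1l, Map1lc3b, Sel1l, Hsp90b1, Chac1, Sesn2, Hspa5, Eif2ak3, Eif2ak4, Junb, Fosl2, Fosb, Nr4a3 and the markers, was chosen after its values were seen. The principal transcript as an alternative length was chosen after seeing the data.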

Additional observations from a re-analysis of the deposited data

How the results depend on the processing

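With another scaling (total counts, upper quartile, DESeq2 size factors) or a prior count of 2, all 40 recomputed log2 differences of the 10 genes stayed within their counting intervals, and the largest shift was 0.01, for Atf4 with upper quartile scaling. The counts at 1.5-fold, 8 higher and 1 lower, were the same under those 3 scalings, the prior count of 2, no minimum count and a minimum of 100. At 2-fold they were 5 higher and 0 lower. With a minimum mean of 100 counts, 3 other bZIP factors were lower in place of 7. No other list count moved by more than 1.5 times under the scalings and minimum counts tried. On the length of the principal transcript, a choice made after seeing the data, the Ddit3 part of the C/EBP family level without methionine was 63.6% in place of 50.7%, and the Atf4 part of the level of the 10 was 44.2% in place of 42.4%. No paired analysis was possible because each medium has 1 library. Depth limits Nupr1, Jdp2 and Cebpb most, whose intervals reach close to 1.5-fold or hold it, and the use of strand in counting limits Cebpb.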
